A study of Mus musculus with 2 samples.

Results

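The genes examined were the 6 genes of platelet-derived growth factor (PDGF) signalling: the 4 ligand genes Pdgfa, Pdgfb, Pdgfc and Pdgfd and the 2 receptor genes Pdgfra and Pdgfrb. They were chosen by name from the 42462 named genes of the tables, and all 6 were found. The samples were whole kidneys of mice of the strain B6NCrl at postnatal day 0, with no treatment or genetic change given in the labels. Each of the 2 libraries held the 2 kidneys of 1 pup, the pups shared a mother, and their sex was not collected, so every value rests on n = 2 littermates of 1 group. Each library was made from 10 ng of total RNA longer than 200 nt with added spike-in RNA, and held 41584961 expected counts (estimated reads) in pup 1 and 48823952 in pup 2. With 1 group the design allowed no test between conditions, and no p-value is given.

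PDGF ligands are secreted dimers that bind receptor tyrosine kinases of class III on neighbouring cells. PDGF-A and PDGF-B are cut by furin-type proteases inside the cell, whereas PDGF-C and PDGF-D leave the cell with a CUB domain that must be cut off before they bind a receptor. The alpha receptor binds the A, B and C chains and the beta receptor binds B and D. In the developing kidney, PDGF-B from endothelial cells is known to recruit mesangial cells and pericytes that carry the beta receptor, and both receptors are found on stromal cells.

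The transcripts of 3 ligand genes differed by short stretches of sequence, printed here, and also at their ends, as given below. Pdgfb is shown for comparison. All are read from the GENCODE M21 transcripts on GRCm38 (mm10), 5′ to 3′ on the gene's own strand. The first 2 are the last coding stretches of Pdgfa-201 (chr5:138978635-138978690, minus strand, in an exon of 69 nt that the other coding Pdgfa transcripts lack) and of Pdgfb-201 (chr15:79997580-79997704, minus strand). Capitals mark lysine and arginine codons, which make up the basic retention stretch that holds these ligands near the cell surface. They were 11 of 17 whole codons before the stop in Pdgfa-201 and 13 of 40 in Pdgfb-201.
Pdgfa-201: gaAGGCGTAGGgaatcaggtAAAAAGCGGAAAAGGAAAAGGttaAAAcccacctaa
Pdgfb-201: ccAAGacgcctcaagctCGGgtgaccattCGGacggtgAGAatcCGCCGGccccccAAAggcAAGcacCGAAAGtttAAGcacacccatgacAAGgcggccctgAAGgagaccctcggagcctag

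The next is the start of an exon of 59 nt in Pdgfc-202 (chr3:81131018-81131073, plus strand), a transcript of the type nonsense-mediated decay. It is shown because it carries a stop codon in frame, in capitals, that ends the reading frame after 57 residues in place of 345.
Pdgfc-202: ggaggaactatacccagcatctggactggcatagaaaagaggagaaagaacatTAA
The last is an insert of 18 nt in frame in Pdgfd-202 (chr9:6288472-6288489, plus strand), in capitals between the transcript bases next to it. It lengthens the coding sequence from 364 to 370 residues.
Pdgfd-202: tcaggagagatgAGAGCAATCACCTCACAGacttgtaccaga

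All 6 PDGF genes were detected, at 1 TPM or more in both pups. The deposited TPM is a transcript level scaled by length and library total, so that genes can be set side by side. By the same rule 61.5% of 21474 protein-coding genes were detected. Both pups had 10 TPM or more of 5 of them, with Pdgfb the exception. Summed, the ligand genes held 115.43 TPM in pup 1 and 113.11 in pup 2, and the receptor genes 48.35 and 46.77. Whole-kidney RNA cannot tell fewer cells of a type from less RNA per cell, nor show which cells held a transcript.

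**Figure D1:**
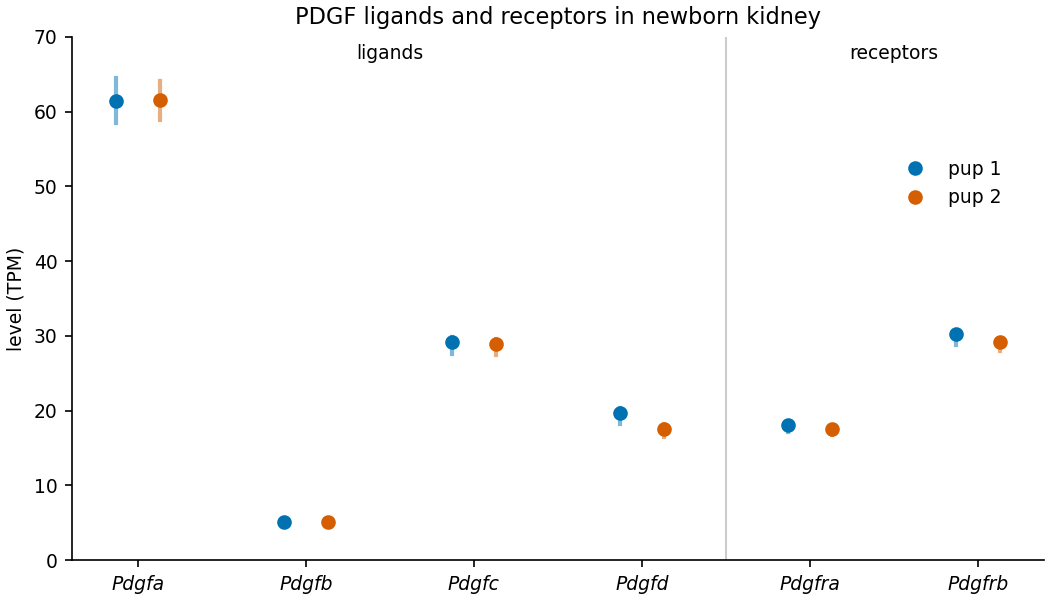
Level of each PDGF gene (TPM, linear axis) in pup 1 (blue) and pup 2 (orange), with the deposited interval of each estimate as a bar. Pdgfa stood at 61.46 and 61.5 TPM, above all others, and Pdgfb at 5.17 in both pups, below all others.

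Pdgfa, which encodes the A chain and lies at chr5:138976014-138997370 on the minus strand (ENSMUSG00000025856.11), had a level of 61.46 TPM for pup 1 and 61.5 for pup 2 (61.5 ± 0.0283, SD, n = 2). These values rested on 2838 and 3427 expected counts. The deposited intervals, whose level is not given in the sources used here, ran from 58.41 to 64.45 and from 58.83 to 64.04 TPM. Pdgfa was the highest of the PDGF genes in both pups and stood above 80.9% of the detected protein-coding genes.

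Pdgfb, which encodes the B chain (chr15:79995874-80014977, minus strand, ENSMUSG00000000489.6), was listed at 5.17 TPM in both pups, from 432 and 532 expected counts. Its deposited intervals, 4.596 to 5.549 and 4.673 to 5.536 TPM, lay below the interval of every other PDGF gene. Pdgfb stood above 20.3% of the detected protein-coding genes.

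Pdgfc (chr3:81036416-81214040, plus strand, ENSMUSG00000028019.5) encodes a ligand of the CUB type. It stood at 29.18 and 28.91 TPM in pups 1 and 2 (29.0 ± 0.191, SD, n = 2), from 2475 and 2997 expected counts. Most of this level was on a transcript that does not encode the full ligand, as described with the transcripts.

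Pdgfd (chr9:6168584-6378850, plus strand, ENSMUSG00000032006.10) encodes the other CUB-type ligand, which binds the beta receptor. Pup 1 had 19.62 TPM of it and pup 2 had 17.53 (18.6 ± 1.48, SD, n = 2), from 1577 and 1744 expected counts. Its deposited intervals ran from 18.26 to 20.32 and from 16.42 to 18.21 TPM. By deposited TPM, the median log2 ratio of pup 2 over pup 1 was itself -0.0831 over the 15150 genes compared below. After correction for library composition the log2 ratio of Pdgfd was -0.0647, and 34.5% of those genes had a smaller absolute ratio.

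Pdgfra (chr5:75152292-75198215, plus strand, ENSMUSG00000029231.11), the alpha receptor gene, had 18.11 TPM in pup 1 and 17.58 in pup 2 (17.8 ± 0.375, SD, n = 2). Pdgfrb (chr18:61045150-61085061, plus strand, ENSMUSG00000024620.7), the beta receptor gene, stood at 30.24 and 29.19 TPM (29.7 ± 0.742, SD, n = 2). The receptor genes rested on the most counts of the PDGF genes, with 3468 and 4141 expected counts for Pdgfra and 4761 and 5654 for Pdgfrb. Their values did not overlap: Pdgfrb was 1.67-fold higher than Pdgfra in pup 1 and 1.66-fold higher in pup 2.

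To order the levels, each of the 15 pairs of PDGF genes was compared as log2(TPM + 1) within each pup. A pair was called apart when its sign was the same in both pups and its mean difference exceeded the 95th percentile of the differences between the pups over all genes of like level. That limit was 0.32 over 7442 genes at 10 to 100 TPM and 0.53 over 5975 genes at 1 to 10 TPM. By this rule, which is a measure against the spread and not a test, 13 pairs were apart and 2 were not.

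By TPM, Pdgfa was apart from all the others. It was 2.03- and 2.11-fold higher than Pdgfrb in pups 1 and 2, 2.11- and 2.13-fold higher than Pdgfc, and 11.9-fold higher than Pdgfb in both. By CPM, with no scaling by length, Pdgfa lay below Pdgfrb (mean log2 difference -0.73) and was not apart from Pdgfc (0.19) or Pdgfra (-0.28). Next by TPM came Pdgfrb and Pdgfc, which did not differ beyond the spread (mean log2 difference, Pdgfc over Pdgfrb, -0.03). Below them, Pdgfd and Pdgfra did not differ beyond the spread either (0.05), and their order turned between the pups. By CPM both of these pairs were apart, with Pdgfc below Pdgfrb (-0.92) and Pdgfd below Pdgfra (-1.17). Pdgfc was 1.49- and 1.65-fold higher than Pdgfd, and Pdgfra was 3.50- and 3.40-fold higher than Pdgfb, the lowest.

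Within the ligands, the known partners of each receptor stood at different levels. Of the beta receptor's ligands, Pdgfd was 3.79- and 3.39-fold higher than Pdgfb in pups 1 and 2. Pdgfrb itself was 5.85- and 5.65-fold higher than Pdgfb and 1.54- and 1.67-fold higher than Pdgfd. Of the alpha receptor's ligands, Pdgfa was 3.39- and 3.50-fold higher than Pdgfra, and Pdgfb was lower, as given above. Pdgfc was 1.61- and 1.64-fold higher than Pdgfra over all its transcripts. Counted by protein-coding transcripts only, Pdgfc lay below Pdgfra (mean log2 difference -1.55), and likewise by CPM, which is not scaled by length (-0.47). These are RNA levels over the whole organ, not amounts of protein.

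The transcript tables split each gene's TPM over its annotated transcripts. They held 17 transcripts of the PDGF genes, against 28 in GENCODE M21. Of the 17, 13 had the same length in both annotations and 4 did not (Pdgfb-201, Pdgfd-201, Pdgfra-201 and Pdgfra-202). Pdgfb was quantified as 1 transcript of the 4 in M21, Pdgfra as 2 of 9 and Pdgfd as 2 of 3, so that splicing of Pdgfb cannot be read from these tables.

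**Figure D2:**
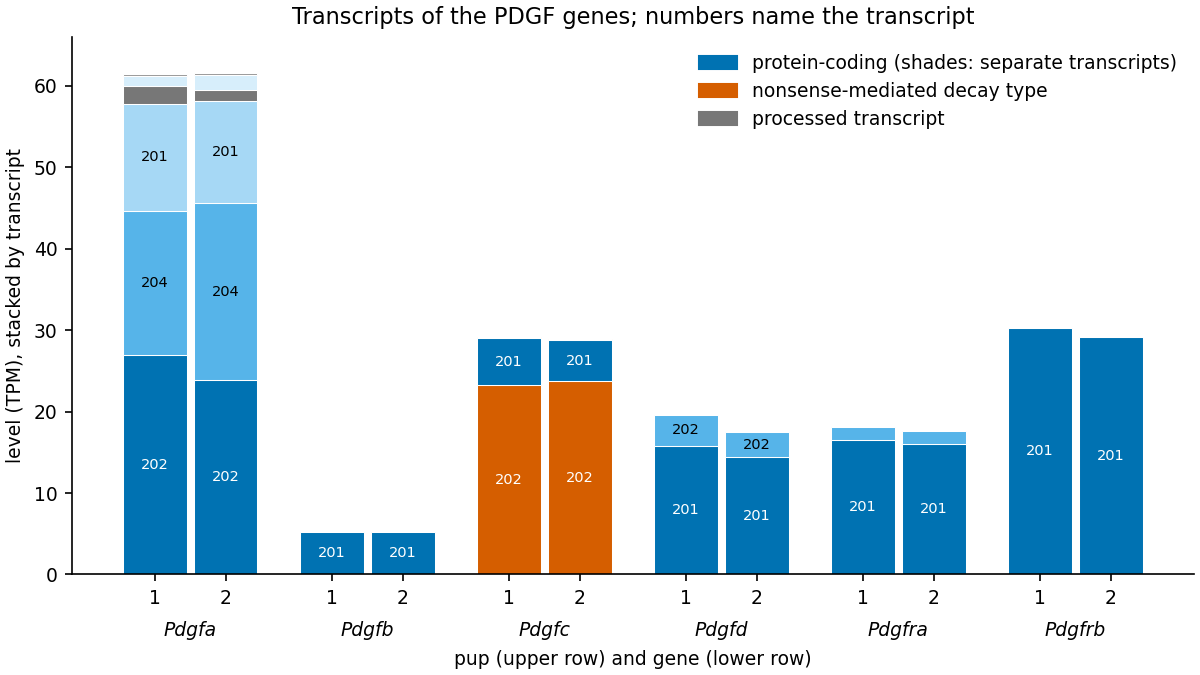
Level of each annotated transcript (TPM, stacked), for pups 1 and 2 of each PDGF gene, coloured by transcript type; numbers in the bars name the transcript. Pdgfc-202, of the nonsense-mediated decay type, held 23.2 and 23.71 TPM, more than the coding Pdgfc-201 at 5.88 and 5.06.

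For Pdgfa the share with the basic retention exon shown above was small. Pdgfa-201, the transcript with that exon and 211 residues, held 21.22% of the gene's TPM in pup 1 and 20.43% in pup 2 (20.8% ± 0.559, SD, n = 2), or 13.04 and 12.56 TPM. The 3 coding transcripts without it, which encode 196 residues, together held 74.73% and 77.13%. Among them Pdgfa-202 held 43.76% and 38.79% and Pdgfa-204 28.89% and 35.3%. In both pups the short form of the A chain thus had the larger share.

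Set beside Pdgfb, Pdgfa RNA with a retention stretch was the more abundant by TPM. Pdgfa-201 stood at 13.04 and 12.56 TPM against 5.17 TPM in both pups for Pdgfb, whose single quantified transcript carries the stretch printed above. The deposited intervals, 10.66 to 14.99 and 10.49 to 14.59 TPM for Pdgfa-201, did not overlap those of Pdgfb. With no scaling by length the 2 were closer, at 558.6 and 662.05 expected counts for Pdgfa-201 against 432 and 532 for Pdgfb. Their quantified lengths were 1543 and 2918 nt. The retention stretch of PDGF-B can be cut off after translation, which RNA does not show.

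Pdgfc had most of its level on the transcript with the early stop. Pdgfc-202 held 79.5% of the gene's TPM in pup 1 and 82.02% in pup 2. The only transcript that encodes the whole ligand, Pdgfc-201, held 20.16% and 17.51% (18.8% ± 1.87, SD, n = 2), or 5.88 and 5.06 TPM. Counted by coding transcripts alone, Pdgfc stood at 5.47 ± 0.580 TPM, and was then not apart from Pdgfb (mean log2 difference, Pdgfb over Pdgfc, -0.07) and lay below Pdgfd, Pdgfra and Pdgfrb.

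The same shares were taken over other genes. Of 12780 detected protein-coding genes whose transcripts all have a type in M21, 1.48% had a lower share on coding transcripts than Pdgfc, and the median gene had 99.3% there. Of these genes 2430 had a decay-type transcript in the tables, and 40 of the 2430, Pdgfc included, had a share on such transcripts at least as high as that of Pdgfc. The coding share of Pdgfa was 95.95% and 97.56%. For Pdgfb, Pdgfd, Pdgfra and Pdgfrb every quantified transcript was of the coding type, so their share of 100% was fixed by the annotation. The same holds for every gene of the 12780 with coding transcripts only.

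**Figure D3:**
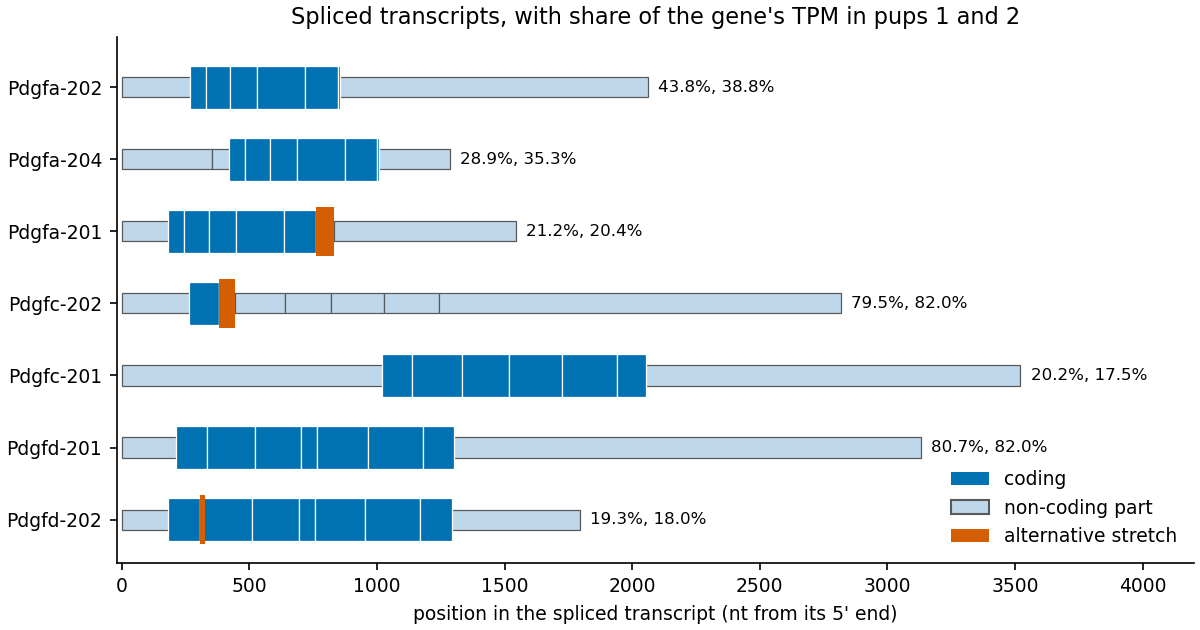
Spliced transcripts of Pdgfa, Pdgfc and Pdgfd to scale (nt from the 5′ end), with coding parts in dark blue, non-coding parts in light blue and the stretches printed above within the orange blocks; percentages are shares of the gene's TPM in pups 1 and 2. The transcripts of a gene differ at their ends as well as in the orange block.

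Transcripts compared in this way differed in more than the stretch printed. Pdgfc-201 has 756 nt at its 5′ end that Pdgfc-202 lacks, against 59 nt of the extra exon. Pdgfa-202 has 502 nt at its 3′ end that Pdgfa-201 lacks, against 69 nt of the retention exon. The tables give no reads per exon, and the part of the exon alone in each split was not tested.

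Pdgfd was divided in nearly the same way in both pups. Pdgfd-201 held 80.67% and 81.98% (15.83 and 14.37 TPM) and Pdgfd-202, with the insert of 18 nt, 19.33% and 18.02% (3.79 and 3.16 TPM). These transcripts also differ by 1326 nt at the 3′ end.

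Over the quantified transcripts, the receptor genes showed little division. Only 2 of the 9 Pdgfra transcripts in M21 were quantified, without the forms of 790 residues, Pdgfra-205 and Pdgfra-208. Pdgfra-201 held 91.3% and 90.95% of its gene and Pdgfra-202, with another first exon and the same coding length of 1089 residues, 8.7% and 9.05%. Pdgfrb-201, with 1099 residues, held 100% in both pups, and Pdgfrb-202 was listed at 0.

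Between the littermates, none of the 6 PDGF genes passed a 2-fold difference in TMM-scaled CPM (counts scaled to a fixed library total, after correction for library composition). Of the 15150 genes that had 50 or more expected counts in 1 pup or both, 0.607% passed it. The log2 ratio of pup 2 over pup 1, after adding 0.1 CPM, was 0.06 for Pdgfa, 0.09 for Pdgfb, 0.07 for Pdgfc and -0.06 for Pdgfd. It was 0.05 for Pdgfra and 0.04 for Pdgfrb. The median absolute ratio over all these genes was 0.0992, above that of each PDGF gene. For Pdgfb, the gene with the fewest counts, the exact binomial 95% interval of the log2 ratio ran from -0.0955 to 0.277, and for Pdgfd from -0.164 to 0.0343. The interval, which covers counting error only, included 0 for all 6 genes.

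**Figure D4:**
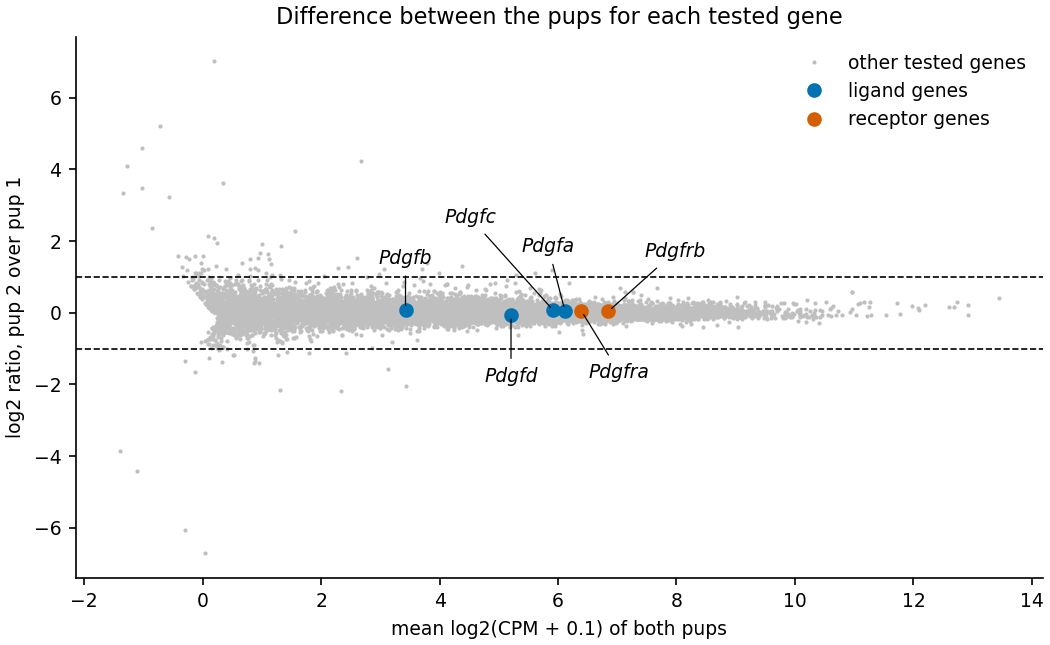
Log2 ratio of pup 2 over pup 1 (vertical) against the mean log2(CPM + 0.1) of the pups (horizontal) for 15150 genes, with PDGF ligand genes in blue and receptor genes in orange; dashed lines mark 2-fold. The PDGF genes lay between -0.06 and 0.09, inside the dashed lines.

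Genes that process or bind the ligands were all detected (10 of 10), with a median of 38.61 TPM in pup 1 and 35.03 in pup 2, against 18.29 and 17.31 over the detected protein-coding genes. The highest was Sparc, a matrix protein that binds PDGF-B, at 1173 ± 131 TPM (SD, n = 2). Plat, tissue plasminogen activator, which activates PDGF-C, stood at 97.7 ± 8.74 TPM, and Nrp1, a co-receptor, at 60.9 ± 2.18. The lowest was the proprotein convertase gene Pcsk6 at 3.03 ± 0.530 TPM. Thus the activating protease gene Plat stood above the ligand gene Pdgfc in both pups (103.91 and 91.55 against 29.18 and 28.91 TPM).

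The 20 genes of signal transduction below the receptors were all detected, with medians of 36.73 and 34.72 TPM. Map2k1, which encodes a kinase of the Ras branch, stood at 66.6 ± 2.14 TPM. Akt1, a kinase of the PI3K branch, had 59.68 TPM in pup 1 and 91.05 in pup 2. Its log2 ratio of 0.70 exceeded the 95th percentile of absolute ratios over all tested genes (0.443) but not 2-fold. The lowest was the exchange factor gene Sos1 at 3.38 ± 0.127 TPM.

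Genes that shut receptors off were also all detected (10 of 10), with lower medians of 11.34 and 9.705 TPM. The highest were the phosphatase genes Ptpn2 at 56.9 ± 1.87 TPM, Acp1 at 47.7 ± 1.39 and Ptpn1 at 46.7 ± 7.20. The lowest was the adaptor gene Sla at 1.78 ± 0.0424 TPM.

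**Figure D5:**
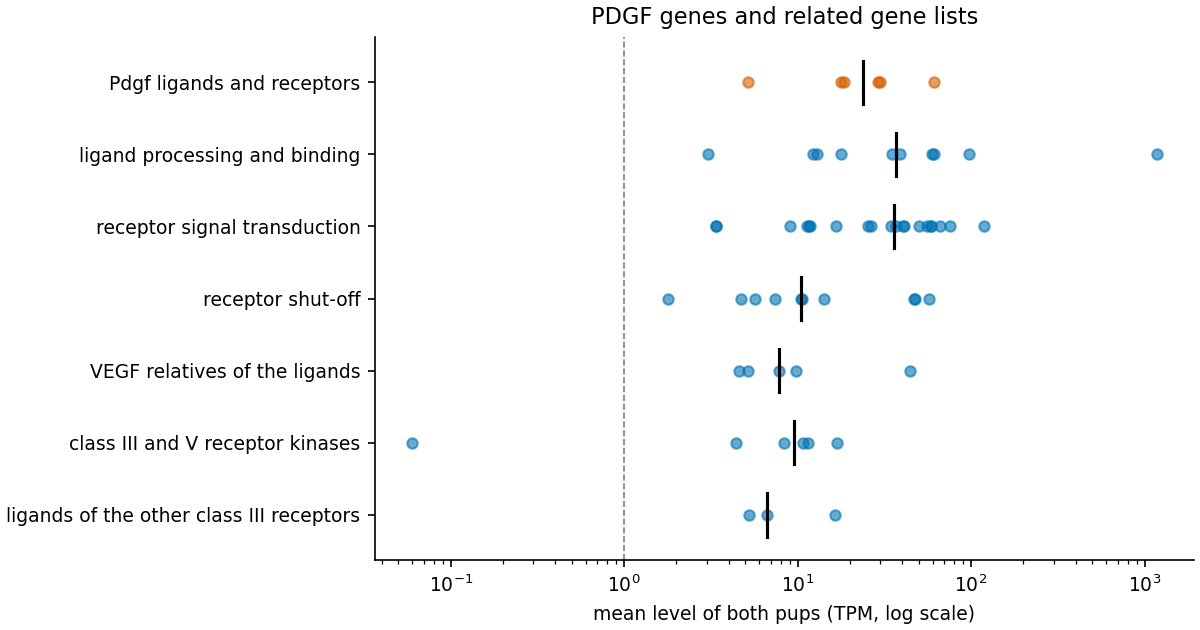
Mean level of both pups (TPM, log axis) of each gene in the PDGF set (orange) and the related lists (blue); black bars mark each list's median and the dashed line 1 TPM. Sparc at 1173 TPM was the highest point and Flt3 at 0.06 the lowest.

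Of the related growth factors of the VEGF family, 5 of 5 were detected, with medians of 7.76 and 7.87 TPM. Vegfb led at 44.3 ± 1.16 TPM, followed by Vegfd at 9.84 ± 1.63 and Vegfc at 7.82 ± 0.0778, and Pgf was the lowest at 4.57 ± 0.0283. Pdgfa, at 61.46 and 61.5 TPM, stood above all of them in both pups.

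Of the other receptor kinases of class III and V, 5 of 6 were detected, with medians of 9.85 and 9.24 TPM. The VEGF receptor gene Kdr stood at 16.8 ± 1.73 TPM, Csf1r at 11.5 ± 1.48 and Kit at 10.8 ± 1.04, whereas Flt3 was near 0 (0.06 ± 0.0141). Pdgfrb stood above each of these in both pups. Of the ligand genes of the class III receptors among them, 3 of 4 listed were matched. These stood at 16.5 ± 0.0707 TPM for Kitl, 6.69 ± 0.629 for Csf1 and 5.23 ± 1.38 for Il34.

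Pdgfra and Pdgfrb each have a class III relative as a neighbour in the genome. Kit lies 376700 bases from Pdgfra on the same strand and stood at 11.52 and 10.05 TPM, while Gsx2, on the other side at 74398 bases, was listed at 0. Csf1r lies 15536 bases from Pdgfrb on the same strand and stood at 12.59 and 10.49 TPM, and Cdx1, at 8950 bases, at 0.16 and 0.27.

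Genes on the opposite strand overlap several PDGF genes. No source used here says whether counting used strand, so reads of such partners cannot be told apart. The antisense gene 6330403L08Rik stood at 1.38 and 1.31 TPM, and shared 21.3% of the 50-base windows of Pdgfa transcripts. Its exons cover 100% of the 354 nt first exon of Pdgfa-204 and none of the first exons of Pdgfa-201 and Pdgfa-202. Gm16000, which overlaps Pdgfc, stood at 0.11 and 0.09 TPM, and Ddi1, inside Pdgfd, was listed at 0. Pdgfra shared 4.93% of its windows with other genes, Pdgfc 1.95%, and Pdgfb, Pdgfd and Pdgfrb none. For Pdgfra most of the shared windows were with Gm42802 and Gm42803. The quantified transcripts, Pdgfra-201 and Pdgfra-202, have no exon at either of these genes. Most of the share of Pdgfra thus lay on M21 transcripts that were not quantified, and it does not measure the overlap of the quantified ones.

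Markers of the cell types that carry or make PDGF were present. Over all protein-coding genes 61.5% were detected, as given above. Of the markers of mesangial cells, pericytes and smooth muscle 16 of 16 were detected, summing to 1267 TPM in pup 1 and 1166 in pup 2. They were led by Acta2 at 448 ± 59.9 TPM and Ren1 at 384 ± 3.37, and the lowest was Abcc9 at 4.32 ± 0.205. Their sum includes Gata3, at 81.47 and 75.86 TPM, which is also listed among the ureteric and collecting duct markers. Of stroma and fibroblast markers 15 of 16 were detected, summing to 2559 and 2307 TPM, with Col3a1 at 534 ± 37.6, Penk at 499 ± 18.6 and Tbx18, the lowest, at 0.70 ± 0.0141. Of endothelial markers 12 of 12 were detected, summing to 784.8 and 782.49 TPM, with Egfl7 at 167 ± 2.88, Plvap at 156 ± 11.1 and Flt1, the lowest, at 8.31 ± 0.177.

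Epithelial markers of the kidney were detected. All 12 nephron markers were detected, with Epcam at 279 ± 6.94 TPM, Slc34a1 at 245 ± 59.2 and Six2, the lowest, at 9.21 and 15.11. All 8 podocyte markers were detected, with Wt1 at 76.7 ± 0.523, Podxl at 68.5 ± 0.276 and Nphs1, the lowest, at 3.41 ± 0.0919. Of ureteric and collecting duct markers 11 of 12 were detected, with Aqp2 at 593 ± 64.6 and Calb1 at 365 ± 21.8. The lowest of these, Krt5, at 0.63 and 2.41 TPM, was the 1 gene of any list that passed 2-fold between the pups among those with at least 50 expected counts in 1 pup or both.

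Platelets also carry PDGF. Of their markers 4 of 8 were detected, against 61.5% of protein-coding genes, with Pf4 at 51.9 ± 1.85 TPM, Itga2b at 10.2 ± 0.255 and Treml1 at 0.115 ± 0.0778. Apart from Pf4 and Itga2b, no marker of this list exceeded 1.44 TPM in either pup. All 8 macrophage markers were detected, with C1qb at 44.86 and 55.11 TPM, C1qa at 26.8 ± 2.66 and Fcgr1 at 1.46 ± 0.177. Of glia and nerve markers 3 of 8 were detected, with Elavl4 at 8.49 ± 2.37 and Stmn2 at 5.22 ± 0.0849, and Olig2 was listed at 0. Of fat markers 0 of 6 were detected, with Adipoq at 0.14 and 0.71 TPM, Plin1 at 0.22 ± 0.0990 and Lep at 0.005. The part of each cell type in the levels of the PDGF genes was not tested.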

How the data were processed

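Total RNA-seq of 2 newborn mouse kidney libraries was analysed from the gene and transcript tables the authors deposited. Per the file headers these give an expected count (an estimated read number, not normalized), a TPM with interval bounds of unstated level and, for transcripts, the percent of the gene's TPM. The deposited notes name mm10 and GENCODE M4; for the aligner, versions and strand: not given in the sources used here. Spike-ins and other sequences outside genes held 0.000767% and 0.000983% of counts.

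Genes were matched by Ensembl identifier to GENCODE M21 (GRCm38), which gave names, coordinates and transcript types. Expected counts were rounded and scaled with TMM in edgeR 4.0.16 (R 4.3.3; alternative DESeq2 1.42.0), giving a biological coefficient of variation of 7.34% (17606 genes). A count of 0 allows up to 3 counts, 0.0721 and 0.0614 CPM. Intervals are exact binomial and cover counting error only. Python 3.11.15 was used. The 2-fold call was tested on simulated counts, without TMM scaling, and the rule for pairs on made-up levels. The other steps were not tested in this way. Described by rule were the PDGF genes, their transcripts with at least 10% of TPM, up to 3 highest genes and the lowest of each pathway list (2 highest for marker lists), and overlapping or neighbouring genes; 1 gene so chosen is not reported here. The genes and lists were chosen with earlier results of these data known.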

Additional observations from a re-analysis of the deposited data

How the results depend on the processing

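The 2 libraries are littermates of 1 group, so variation between litters is not measured. No paired analysis was possible because there is 1 group. The PDGF genes stayed detected at 0.5 TPM, with posterior mean TPM and without either pup, and 5 of 6 at 10 TPM. The count of pairs apart was 13 under every alternative tried, but not always with the same pairs. With CPM in place of TPM, which leaves out length, 3 pairs turned: the log2 difference became -0.28 for Pdgfa over Pdgfra, -0.73 for Pdgfa over Pdgfrb and -0.47 for Pdgfc over Pdgfra. Pdgfa was then no longer apart from Pdgfc (0.19) or Pdgfra, whereas Pdgfc and Pdgfrb (-0.92) and Pdgfd and Pdgfra (-1.17) became apart. With protein-coding transcripts only, it became -1.60 for Pdgfc over Pdgfd and -1.55 for Pdgfc over Pdgfra, by the loss of Pdgfc-202. Pdgfb and Pdgfc were then no longer apart (-0.07), and Pdgfc and Pdgfrb became apart (-2.25). The share of Pdgfa with the retention exon was 21.5% of its coding transcripts, and 20.4% to 21.2% with each pup alone. The coding share of Pdgfa was 94.8% by posterior mean and 98.8% by expected counts, and that of Pdgfc 22.6% by expected counts. No PDGF gene passed 2-fold with DESeq2 size factors, spike-in totals or the ratio of deposited TPM. Scaling by the 307 and 469 spike-in counts moved the median of all genes by -0.40, and the PDGF genes then lay within -0.0683 and 0.0885 of it. At 1.5-fold 2.56% of genes were called, with no count minimum 1.47%, and with 1 CPM added 0.251%. The signs of the PDGF ratios also depend on the scaling: by the ratio of deposited TPM, 4 were below 0, 1 above and Pdgfb at 0, and by spike-in totals all 6 were below 0.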

Other observations

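Pdgfa transcripts were also grouped by first exon, a grouping chosen after the values were seen. The transcripts that start at the proximal first exon, Pdgfa-201 and Pdgfa-202, held 64.98% of the gene's TPM in pup 1 and 59.22% in pup 2. Those that start upstream, Pdgfa-203 and Pdgfa-204, held 30.97% and 38.34%. The first exon of Pdgfa-204 (chr5:138995734-138996087, mm10) and the first exon of Pdgfa-203 (chr5:138997110-138997370) lie wholly within exons of the antisense gene 6330403L08Rik. That gene stood at 1.38 and 1.31 TPM, against 17.76 and 21.71 TPM for Pdgfa-204. The deposited intervals of Pdgfa-204 overlapped between the pups (14.63 to 19.8 and 18.73 to 23.51 TPM). The tables do not give the strand of the reads, and the part of antisense reads in the upstream share was not tested.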
